A study of Aspergillus nidulans with 7 samples.

Results

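Aspergillus nidulans is a filamentous fungus that grows as vegetative hyphae while it is submerged and forms conidiophores, the stalks that carry its asexual spores, once the mycelium meets air. The genes described here are those with a much higher transcript level in the submerged mycelium than at any time after transfer to air. They were chosen from the measured levels: a gene needed at least 20 CPM at 0 h (its count divided by the library's total count, times 1000000), and at least 4 times the highest CPM of the 6 other times. The rule left out a run of 10 neighbouring genes on contig 31 and 8 named genes, hsp70 and other chaperone genes among them. This gave 30 genes of the 10639 in the table.

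The strain in all 7 libraries was FGSC A4, a wild-type reference strain in minimal medium, and the labels give the time of each library. For 0 h, mycelium grown for 20 h in an aerated submerged culture was collected on filter paper and frozen at once. For 6, 12, 18, 24, 30 and 48 h, filters of the same culture were kept wet, in air and under constant light, until they were collected. Messenger RNA was sequenced, with 1 library per time and no replicate, so the age of the culture, the time on the filter, the light and the air all differ between 0 h and the other times and cannot be told apart. In such bulk samples, fewer cells of a kind and less RNA per cell cannot be told apart either.

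Totals ran from 4186063 to 9899347 counts per library. Between the first and last libraries, brlA, the regulator that starts conidiophore formation, had 0.431 CPM at 0 h and 484 CPM at 48 h, and rodA, the hydrophobin of the spore surface, had 0 CPM at 0 h and 10546 CPM at 48 h. Of the 18 genes listed for conidiation, brlA and 6 others rose in a test of the slope over 6 to 48 h, medA fell and 10 did not pass, rodA among them (edgeR adjusted p = 0.0804), beside 10.1% of all genes tested that rose and 8.68% that fell. By CPM 0 of the 18 were highest at 0 h, beside 7.55% of all genes tested. The 100 most abundant genes held 45.3% of all counts at 0 h and 20.8% at 48 h. Scaling by TMM (trimmed mean of M-values), which aligns the bulk of genes between libraries, put the 0 h factor at 0.459, so CPM by totals understates 0 h levels relative to the bulk of genes. With TMM-normalized CPM, medA and flbA were highest at 0 h, 2 of the 18, beside 27.4% of all genes tested.

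The 30 genes together took 1.93% of the 0 h library (exact 95% interval 1.92 to 1.94%), 0.286% of the library at 6 h and 0.153% at 48 h (exact 95% interval 0.150 to 0.155%). Intervals cover counting error only. Their median level was 377 CPM at 0 h and 58.5, 44.6, 41.1, 28.8, 22.2 and 23.0 CPM at 6, 12, 18, 24, 30 and 48 h. The gap between 0 h and the other times chose the genes and is given as a description. Of the 3654 genes at 20 CPM or more at 0 h, 37 met the ratio before the named genes and the contig 31 group were left out, which is 1.01%. By any margin, 644 of the 3654 were highest at 0 h, and the median ratio of 0 h to the highest other time over the 3654 was 0.463.

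**Figure D1:**
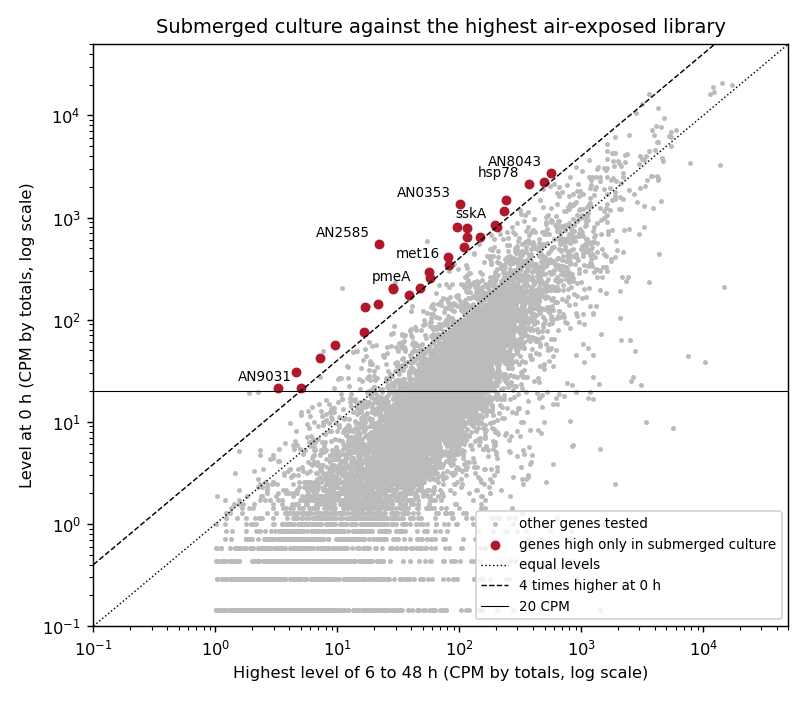
Level at 0 h (vertical, CPM by totals, log scale) against the highest level of the 6 to 48 h libraries (horizontal, CPM by totals, log scale), 1 point per gene with a count at 0 h and a passed count filter. The 30 genes (red) lie above 20 CPM and above the line of 4 times, from AN9031 at 21.4 CPM to AN8043 at 2737 CPM at 0 h. The grey points beyond both lines are genes left out by name or place.

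Over the 30 genes the ratio of 0 h to the highest air-exposed library ran from 4.01 to 25.0, with a median of 5.39, and 12 were under 5. On the TMM scale the same ratios ran from 7.68 to 53.2, with a median of 11.6. Each of the 30 had at least 3 counts in every library, and 14 stayed at 20 CPM or more throughout. The name "high only in submerged culture" therefore stands for a drop and does not mean that the genes were off in air. Under 1 CPM in at least 1 air-exposed library were 4 genes, where a low level and none cannot be told apart. The counting interval of the ratio reached below 4 for 9 genes.

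Just inside the ratio were AN6128 at 4.01, met16 at 4.14 and AN9031 at 4.25. Just outside it were AN8168 at 3.96, the calcium pump gene pmcC at 3.88 and AN4366 at 3.85. At the floor of 20 CPM, AN9031, AN8132 and AN8522 were inside at 21.4, 21.6 and 30.8 CPM, and AN10447, AN10667 and AN1804 were outside at 19.7, 19.0 and 6.61 CPM. Scaled by TMM, the rule would have taken 226 genes, these 30 among them.

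All 30 genes were in the ASM1142v1 reference table, and 4 carried a symbol there: hsp78, sskA, met16 and pmeA. The other 26 had an identifier only and are described by their levels. The 4 belong to separate areas of hyphal life: protein folding in mitochondria, stress signalling, sulfur assimilation and pectin breakdown.

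hsp78 (AN1163; contig 16, 358205 to 360607) is named after the yeast gene for a mitochondrial disaggregase, a chaperone that pulls clumped proteins apart. It had 2121 CPM at 0 h and 156, 197, 370.1, 338, 323 and 199 CPM at 6, 12, 18, 24, 30 and 48 h. Its 0 h level was 5.73 times (95% counting interval 5.46 to 6.02) the highest air-exposed level, at 18 h. The 6 h library was the lowest by CPM and the 48 h library with TMM-normalized CPM, and on both scales the levels at 18 to 30 h lay above that at 6 h.

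A list of 8 heat shock and chaperone genes taken by symbol held hsp78. The rule chose hsp78 for its 0 h level, so it counts by construction among those highest at 0 h. Of the 8, 7 were highest at 0 h by CPM, beside 7.55% of all genes tested and 17.6% of those at 20 CPM or more at 0 h. With TMM-normalized CPM 7 were highest at 0 h, beside 27.4% of all genes tested. By CPM, 6 were so by at least 2 times, beside 1.83% of all genes tested, and hsp70 and hsp78 by at least 4 times, beside 1.01% of the genes at 20 CPM or more at 0 h. hsp70, the abundant cytosolic chaperone gene, had 16244 CPM at 0 h and 3095, 2499, 3587, 3191, 2068 and 2259.9 CPM at 6, 12, 18, 24, 30 and 48 h. It met both thresholds and was left out of the 30 by name. bipA, which encodes the chaperone of the endoplasmic reticulum, was the exception, with 200.0 CPM at 0 h and 582, 653, 791, 885, 1058 and 554 CPM at 6, 12, 18, 24, 30 and 48 h. It was lowest at 0 h by CPM and at 48 h with TMM-normalized CPM, and highest at 30 h on both scales. In the test of the slope over 6 to 48 h, described below, edgeR called 0 of the 8, beside 8.68% of all genes that fell and 10.1% that rose. Of the 8, 2 had an unadjusted p under 0.05, and DESeq2 called 2 and limma-voom 0.

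sskA (AN7697; contig 127, 284861 to 287471) encodes a response regulator that passes the signal of a histidine kinase relay to a stress-activated MAP kinase cascade. It had 839.9 CPM at 0 h and 148, 197, 155, 126, 179 and 188 CPM at 6, 12, 18, 24, 30 and 48 h. The air-exposed libraries lay close together, within 1.56 times of each other by CPM and 1.82 times with TMM-normalized CPM, and all lay far below 0 h. Its 0 h level was 4.27 times (95% counting interval 3.97 to 4.60) the highest of them.

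Other genes named for stress signalling were looked up after the values of sskA were known. The histidine kinase gene tcsB had 280.1 CPM at 0 h and 306, 310.3, 322, 458, 336 and 179 CPM at 6, 12, 18, 24, 30 and 48 h. The MAP kinase gene sakA had 99.5 CPM at 0 h and 204, 253, 315, 508, 294 and 179 CPM at 6, 12, 18, 24, 30 and 48 h. ypdA, the phosphotransfer protein of the relay, had 17.3 CPM at 0 h and 43.9, 41.1, 52.6, 81.8, 59.4 and 84.7 CPM at 6, 12, 18, 24, 30 and 48 h. Of the 8 genes looked at (with sskB, pbs2, atfA and sho1), sskA was the 1 highest at 0 h by CPM, but this turned on the scale. With TMM-normalized CPM, 4 of the 8 were highest at 0 h: sskA at 1829.9 against at most 189 in air, tcsB at 610.3 against at most 377 in air, atfA at 270.4 against at most 219 in air and sho1 at 189 against at most 174 in air. sho1, named after the yeast gene for a membrane sensor, is the gene next to sskA on the contig, with 1370 bases between them. Whether it acts with sskA was not tested. It had 86.7 CPM at 0 h and 152, 128, 178, 163, 226 and 243 CPM at 6, 12, 18, 24, 30 and 48 h.

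met16 (AN4770; contig 78, 332513 to 333487) carries the name of the yeast gene for the reductase that turns activated sulfate into sulfite. It had 340.1 CPM at 0 h and 60.4, 37.3, 66.4, 46.9, 82.2 and 77.2 CPM at 6, 12, 18, 24, 30 and 48 h. The lowest library was 12 h, and the highest air-exposed one was 30 h by CPM and 6 h with TMM-normalized CPM. At 4.14 times (95% counting interval 3.82 to 4.48) its highest air-exposed level, it was close to the threshold.

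sC, the gene for ATP sulfurylase, which starts the same pathway, is the neighbouring gene, 3058 bases away. It had 66.1 CPM at 0 h and 263, 242, 139.5, 139, 128 and 186 CPM at 6, 12, 18, 24, 30 and 48 h. Between 0 and 6 h sC was higher at 6 h and met16 at 0 h, on both scales. sC was lowest at 0 h by CPM only: with TMM-normalized CPM it had 144 at 0 h and 299.8 at 6 h, and was lowest at 30 h, at 97.4. Of the other sulfur genes looked up after these values were known, met2, named after the yeast gene for homoserine acetyltransferase, had 21.3 CPM at 0 h and 40.4, 49.2, 64.7, 65.0, 79.9 and 111 CPM at 6, 12, 18, 24, 30 and 48 h. metG, which encodes a cystathionine lyase, had 48.7 CPM at 0 h and 111, 119.9, 179, 162, 172 and 232 CPM at 6, 12, 18, 24, 30 and 48 h. Neither shared the high level of met16 at 0 h.

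pmeA (AN3390; contig 53, 403357 to 404510) encodes a pectin methylesterase, an enzyme that trims pectin of plant cell walls. It had 205 CPM at 0 h and 47.8, 16.5, 24.9, 17.7, 23.1 and 7.65 CPM at 6, 12, 18, 24, 30 and 48 h. Its 0 h level was 4.28 times (95% counting interval 3.74 to 4.91) the highest air-exposed level, at 6 h, and 48 h was the lowest. On a list of 12 genes for plant polysaccharide degradation, 10 could be tested over 6 to 48 h: 1 fell (pmeA), 1 rose (eglD) and 8 did not pass, shares near the 8.68% and 10.1% of all genes tested. The median change over these 10 was 0.29, beside 0.07 over all genes tested. By CPM 2 of the 12 were highest at 0 h, pmeA and eng2, beside 7.55% of all genes tested, and with TMM-normalized CPM 5 were, beside 27.4%. The rule chose pmeA for its 0 h level, so it counts by construction. eng2 is known in Aspergillus fumigatus for a glucanase of the fungal wall rather than for plant material.

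**Figure D2:**
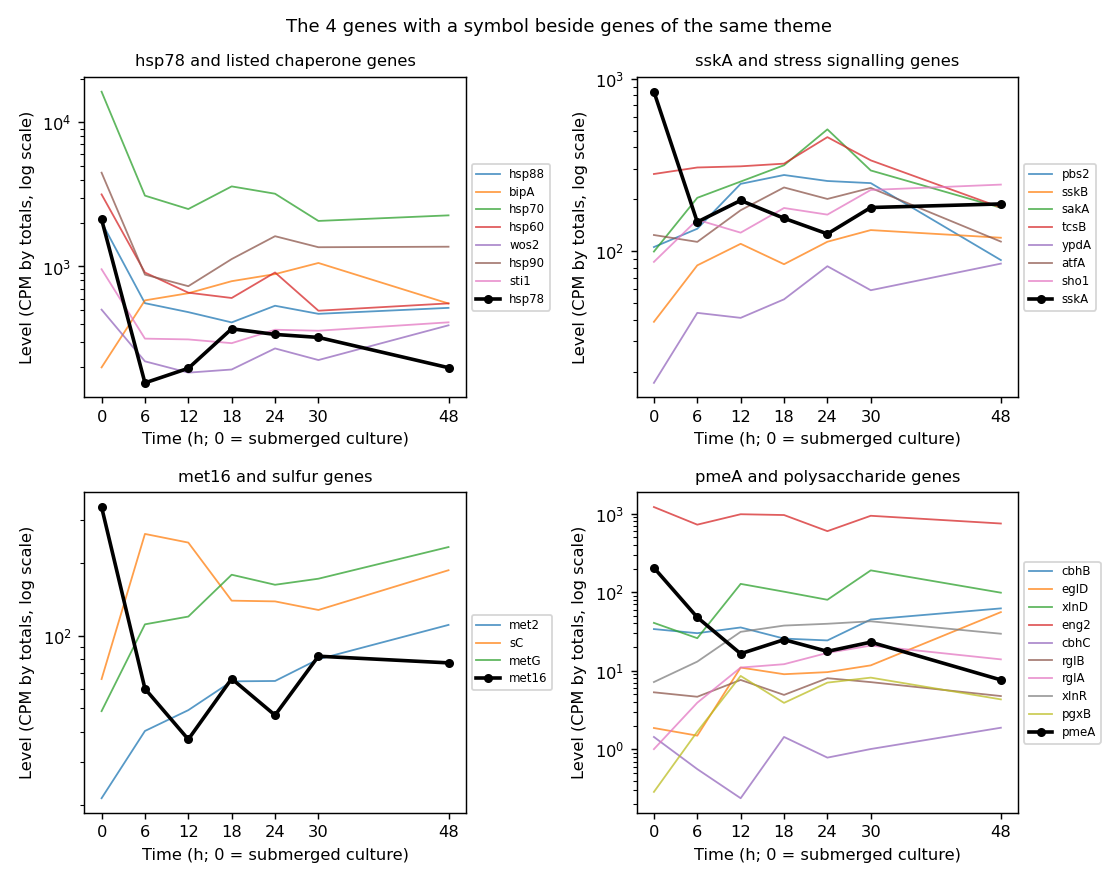
Levels (CPM by totals, log scale) by time for hsp78, sskA, met16 and pmeA (black, with points) beside genes of the same theme (coloured lines; genes with a library at 0 CPM are not drawn). Each of the 4 has its highest point at 0 h, at 2121, 839.9, 340.1 and 205 CPM, and sits below the line of at least 1 other gene at later times.

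The most abundant of the genes without a symbol was AN8043 (contig 136, 90406 to 91017). It had 2737 CPM at 0 h and 569, 124, 244, 320.1, 132 and 74.7 CPM at 6, 12, 18, 24, 30 and 48 h. After 6 h it lost more, dipped at 12 h, was higher again at 24 h and was lowest at 48 h. Per length of transcript, it stood at 4472 RPKM at 0 h, rank 33 of all genes there, the highest of the 30, and at 122 RPKM at 48 h.

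Next came AN1148 (contig 16, 311495 to 313503), with 2247 CPM at 0 h and 292, 414, 493, 453, 433 and 184 CPM at 6, 12, 18, 24, 30 and 48 h. Here the levels at 12 to 24 h lay above those at 6 and 48 h. AN4963 (contig 82, 328249 to 331784) had 1477 CPM at 0 h and 216, 241, 173, 176, 125 and 147 CPM at 6, 12, 18, 24, 30 and 48 h. AN2238 (contig 34, 48993 to 50257) had 1164 CPM at 0 h and 153, 153, 231, 211, 135 and 183 CPM at 6, 12, 18, 24, 30 and 48 h. These 2 genes kept over 100 CPM at every time, and so did AN1148, hsp78 and sskA, the 5 of the 30 that did. AN10547, the shortest of the 30 with a counted length of 513 bases, had 414 CPM at 0 h and 67.1, 51.4, 80.1, 67.7, 55.0 and 53.4 CPM at 6, 12, 18, 24, 30 and 48 h.

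The largest ratio was that of AN2585 (contig 41, 231822 to 233431). It had 551 CPM at 0 h and 19.8, 18.9, 22.0, 20.4, 17.5 and 5.21 CPM at 6, 12, 18, 24, 30 and 48 h. From 6 to 30 h the CPM lay between 17.5 and 22.0, after a first step to 3.60% of the 0 h level. The 0 h level was 25.0 times (95% counting interval 20.7 to 30.6) the highest air-exposed one. AN0353 (contig 6, 185614 to 187893) was the second, at 13.3 times (95% counting interval 12.2 to 14.5), with 1348 CPM at 0 h and 102, 59.5, 85.3, 67.3, 54.1 and 29.9 CPM at 6, 12, 18, 24, 30 and 48 h. AN0913 was the third, at 8.32 times (95% counting interval 7.60 to 9.12), with 804 CPM at 0 h and 96.6, 66.2, 96.2, 87.7, 61.9 and 41.1 CPM at 6, 12, 18, 24, 30 and 48 h. These 3 were the only genes of the 30 at 8 times or more.

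Then followed AN5467 at 7.82 times, AN11016 at 7.0, AN6940 at 6.88, AN0330 at 6.87, AN8522 at 6.78, AN6945 at 6.56 and AN8132 at 6.56 times the highest air-exposed level. AN5467 had 132 CPM at 0 h and 16.8, 13.6, 6.78, 6.48, 4.95 and 4.44 CPM at 6, 12, 18, 24, 30 and 48 h. AN11016 had 202 CPM at 0 h and 14.8, 24.4, 14.8, 28.8, 18.9 and 16.1 CPM at 6, 12, 18, 24, 30 and 48 h. The first went on falling in air, and the second stayed between 14.8 and 28.8 CPM. AN8522 and AN8132 rested on few counts in air: AN8522 had 30.8 CPM at 0 h and 1.87, 4.54, 1.64, 0.589, 1.31 and 0.665 CPM at 6, 12, 18, 24, 30 and 48 h, and its ratio had a counting interval of 4.24 to 11.5. AN8132 had 21.6 CPM at 0 h and 2.06, 2.87, 3.29, 2.55, 1.01 and 0.776 CPM at 6, 12, 18, 24, 30 and 48 h, with an interval of 3.91 to 11.8.

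The course within air was tested as the slope over 6 to 48 h, since the rule used the highest of these 6 libraries but not their order. The rule did hold every air-exposed CPM of the 30 at least 4 times below 0 h, a limit not set on all genes tested. The shares of falls and rises are therefore not free of the choice of genes. Of the 30 genes, 17 fell and 0 rose (edgeR's quasi-likelihood test, adjusted p under 0.05), against 841 of all 9691 genes tested that fell, which is 8.68%, and 977 that rose, which is 10.1%. All 30 passed the count filter. The median fitted change was -1.94 log2 units over the 30 and 0.07 over all genes tested, and 29 of the 30 were below 0. For the rise, 0 of the 30 had an unadjusted p under 0.05 with edgeR, and DESeq2 and limma-voom called 0. Scaled by totals alone, 11 of the 30 fell, against 3.93% of all genes, and without the 48 h library 6 fell, against 2.96%.

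**Figure D3:**
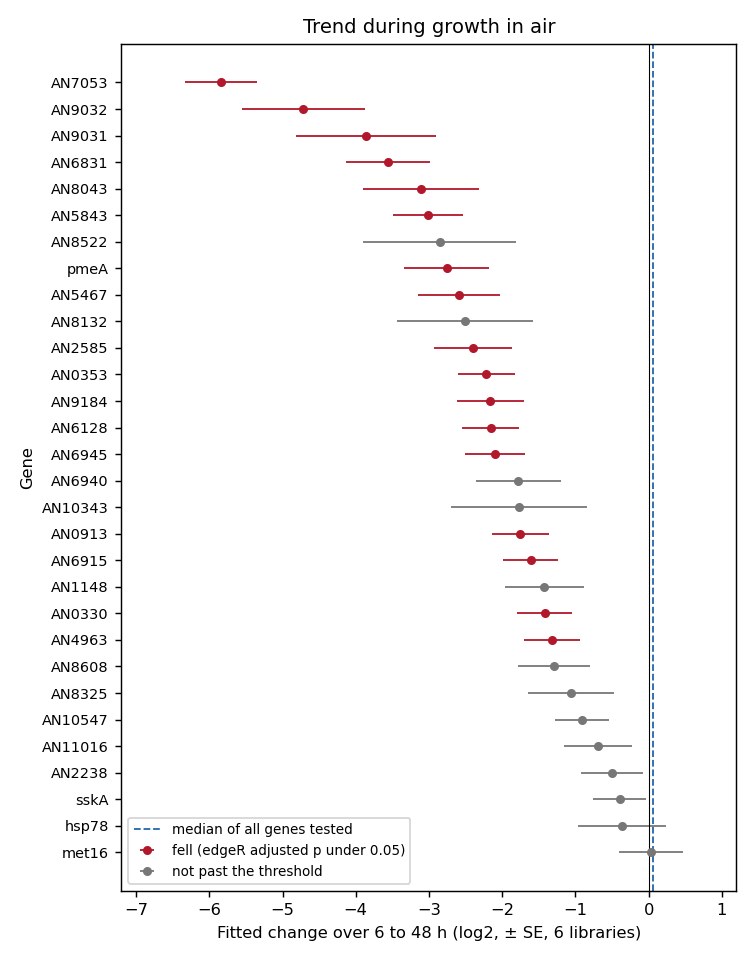
Fitted change over 6 to 48 h (log2 units, horizontal; bars are ± 1 SE from 6 libraries) for each of the 30 genes, with those past an edgeR adjusted p of 0.05 in red. The 17 red genes run from -5.83 for AN7053 to -1.32 for AN4963, and met16 is the 1 gene above 0, at 0.03.

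AN7053 (contig 114, 257727 to 258615) had the steepest course. It had 291 CPM at 0 h and 56.6, 37.7, 33.7, 13.0, 7.37 and 1.77 CPM at 6, 12, 18, 24, 30 and 48 h, and fell by 5.83 on the log2 scale (SE 0.49 from 6 libraries; edgeR adjusted p = 0.000271) over 6 to 48 h. Each library was lower than the one before it, down to 0.61% of the 0 h level. It was called under every alternative run, as were AN5467, AN5843 and AN6128.

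AN5843 (contig 97, 151061 to 153888) had 254 CPM at 0 h and 40.7, 57.6, 19.9, 25.9, 17.5 and 9.54 CPM at 6, 12, 18, 24, 30 and 48 h, and fell by 3.01 on the log2 scale (SE 0.48 from 6 libraries; edgeR adjusted p = 0.00368). Its highest air-exposed library was 12 h. AN6128 (contig 101, 291055 to 292596) had 811 CPM at 0 h and 202, 194, 147, 93.8, 100.2 and 73.9 CPM at 6, 12, 18, 24, 30 and 48 h, and fell by 2.16 on the log2 scale (SE 0.39 from 6 libraries; edgeR adjusted p = 0.00593). This gene kept 24.9% of its 0 h level at 6 h, the most of the 30, and went down step by step, by CPM with the exception of 24 to 30 h. AN6831 (contig 110, 102046 to 103859) had 173 CPM at 0 h and 37.4, 29.6, 38.4, 24.3, 21.3 and 4.32 CPM at 6, 12, 18, 24, 30 and 48 h, and fell by 3.56 on the log2 scale (SE 0.57 from 6 libraries; edgeR adjusted p = 0.00375). Here most of the loss in air lay between 30 and 48 h.

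AN9031 and AN9032 are neighbours on contig 165 (152953 to 153892 and 154181 to 155244), with 288 bases between them, and are the only members next to each other. AN9031 had 21.4 CPM at 0 h and 5.05, 2.39, 3.08, 3.73, 1.72 and 0.333 CPM at 6, 12, 18, 24, 30 and 48 h. AN9032 had 75.1 CPM at 0 h and 16.6, 10.3, 11.9, 10.6, 5.96 and 0.554 CPM at 6, 12, 18, 24, 30 and 48 h. Both were highest in air at 6 h and lowest at 48 h, where they rested on 3 and 5 counts. AN9031 fell by 3.86 on the log2 scale (SE 0.95 from 6 libraries; edgeR adjusted p = 0.023), and AN9032 fell by 4.72 on the log2 scale (SE 0.84 from 6 libraries; edgeR adjusted p = 0.00585). Their ratios at 0 h were 4.25 and 4.51, and both intervals (2.80 to 6.66, and 3.60 to 5.72) reached below 4. The genes on either side, AN9030 and AN9033, had at most 0.505 and 1.11 CPM in any library.

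Over 6 to 48 h AN8043 fell by 3.11 on the log2 scale (SE 0.79 from 6 libraries; edgeR adjusted p = 0.0287), and pmeA fell by 2.76 on the log2 scale (SE 0.58 from 6 libraries; edgeR adjusted p = 0.012). AN5467 fell by 2.59 on the log2 scale (SE 0.56 from 6 libraries; edgeR adjusted p = 0.0135), and AN2585 fell by 2.40 on the log2 scale (SE 0.53 from 6 libraries; edgeR adjusted p = 0.0146). AN0353 fell by 2.22 on the log2 scale (SE 0.39 from 6 libraries; edgeR adjusted p = 0.00577), and AN6945 fell by 2.10 on the log2 scale (SE 0.41 from 6 libraries; edgeR adjusted p = 0.00868). In AN2585 the 48 h library stood apart, at 5.21 CPM against 17.5 to 22.0 CPM at the 5 times before. The others that fell were AN9184, AN0913, AN6915, AN0330 and AN4963, with changes of -2.16, -1.75, -1.61, -1.42 and -1.32 on the log2 scale, with edgeR adjusted p from 0.013 to 0.0409.

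AN9184 had 642 CPM at 0 h and 148, 90.5, 145, 87.1, 104 and 44.1 CPM at 6, 12, 18, 24, 30 and 48 h. AN6915 had 649 CPM at 0 h and 115, 66.9, 80.3, 74.8, 74.1 and 48.5 CPM at 6, 12, 18, 24, 30 and 48 h. AN0330 had 789 CPM at 0 h and 115, 69.5, 71.1, 86.4, 65.2 and 56.6 CPM at 6, 12, 18, 24, 30 and 48 h. In all 3 the 6 h library was the highest of the air-exposed ones and the 48 h library the lowest.

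Calls were lost when 1 library was left out, in most cases with the slope within 1.5 times of that on all 6 libraries and a larger SE. Without the 48 h library, 12 of the 17 were not past the threshold. The slopes then covered 6 to 30 h and are given scaled to 42 h, beyond the hours fitted. For 3 of these 12 the size of the scaled change moved by over 1.5 times: it was -1.07 (edgeR adjusted p = 0.271) for AN2585, -2.23 (edgeR adjusted p = 0.0624) for AN6831 and -2.95 (edgeR adjusted p = 0.0525) for AN9032, in log2 units. For the other 9 it stayed within 1.5 times, and the SE was larger in each. It was -1.89 (edgeR adjusted p = 0.0902) for AN0330, -1.76 (edgeR adjusted p = 0.106) for AN6915 and -3.27 (edgeR adjusted p = 0.168) for AN8043, each a steeper slope than with all 6 libraries. It was -2.12 (edgeR adjusted p = 0.0749) for AN0353, -2.51 (edgeR adjusted p = 0.122) for pmeA, -1.54 (edgeR adjusted p = 0.167) for AN0913, -1.69 (edgeR adjusted p = 0.166) for AN9184, -1.48 (edgeR adjusted p = 0.155) for AN6945 and -2.72 (edgeR adjusted p = 0.183) for AN9031. These last slopes were shallower than with all 6 libraries. By CPM the 48 h library was the lowest in air for 16 of the 17. Why the calls were lost was not tested.

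Without the 6 h library the calls lost were those of AN0330, at -0.89 (edgeR adjusted p = 0.125), a change over 1.5 times smaller, and of 4 genes within 1.5 times: pmeA at -1.97 (edgeR adjusted p = 0.06), AN4963 at -1.20 (edgeR adjusted p = 0.0912), AN6915 at -1.13 (edgeR adjusted p = 0.0647) and AN8043 at -2.18 (edgeR adjusted p = 0.156). Without the 30, 24, 18 or 12 h library, 4, 2, 2 and 1 calls were lost, all of AN0330, AN4963, AN8043 or AN9031 and all with the change within 1.5 times.

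Another 13 genes did not pass the test, with edgeR adjusted p from 0.0641 to 0.972. sskA had a fitted change of -0.39 ± 0.36 on the log2 scale (SE from 6 libraries; edgeR adjusted p = 0.499), hsp78 of -0.36 ± 0.60 on the log2 scale (SE from 6 libraries; edgeR adjusted p = 0.723) and met16 of 0.03 ± 0.44 on the log2 scale (SE from 6 libraries; edgeR adjusted p = 0.972). AN2238 had -0.50 ± 0.43 on the log2 scale (SE from 6 libraries; edgeR adjusted p = 0.458) and AN11016 -0.69 ± 0.47 on the log2 scale (SE from 6 libraries; edgeR adjusted p = 0.346). These 5 were lower at every later time than at 0 h, and no trend over 6 to 48 h passed the test, which does not show that there was none. By CPM their air-exposed levels ranged over 1.56 times for sskA, 2.37 for hsp78, 2.21 for met16, 1.71 for AN2238 and 1.95 for AN11016. Of the 13, 6 kept all air-exposed libraries within 2 times of each other by CPM and 3 with TMM-normalized CPM.

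AN10343 (contig 48, 17382 to 19295) went down and up again. It had 509.8 CPM at 0 h and 109, 79.8, 43.8, 13.7, 19.6 and 50.7 CPM at 6, 12, 18, 24, 30 and 48 h. The lowest library was 24 h, and 48 h lay above it. Its straight-line change was -1.77 ± 0.92 on the log2 scale (SE from 6 libraries; edgeR adjusted p = 0.228). Without the 48 h library the slope covered 6 to 30 h. Scaled to 42 h, beyond the hours fitted, it was -5.89 log2 units (edgeR adjusted p = 0.00441). A fall of that size was not measured: with TMM-normalized CPM its highest and lowest air-exposed libraries, 6 and 24 h, differed by 10.98 times. The call turned on the 48 h library.

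AN8608 had 56.9 CPM at 0 h and 9.53, 7.64, 6.58, 7.07, 5.86 and 5.66 CPM at 6, 12, 18, 24, 30 and 48 h, and AN8325 had 42.1 CPM at 0 h and 5.98, 5.49, 7.19, 4.32, 3.94 and 4.77 CPM at 6, 12, 18, 24, 30 and 48 h. By CPM both stayed within 2 times of their own lowest level in air, and with TMM-normalized CPM they ranged over 2.68 and 2.27 times. AN6940 (fitted change -1.78 ± 0.58 on the log2 scale (SE from 6 libraries; edgeR adjusted p = 0.0641)) and AN1148 (-1.42 ± 0.54 on the log2 scale (SE from 6 libraries; edgeR adjusted p = 0.101)) were not past the edgeR test with all 6 air-exposed libraries. On the same 6 libraries DESeq2 called both (adjusted p = 0.0125 for AN6940 and 0.0172 for AN1148), and limma-voom called AN6940 (adjusted p = 0.0424) and not AN1148 (adjusted p = 0.0587). Without the 6 h library edgeR called both (-2.27 and -1.99 log2 units; adjusted p = 0.029 and 0.0267). AN8132 was called then too (-3.09; edgeR adjusted p = 0.0472), and by neither DESeq2 nor limma-voom on all 6 (adjusted p = 0.0576 and 0.0784).

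The air-exposed libraries were also ranked gene by gene, within the limit that the rule set on the 30 in air. The 6 h library was the highest of the 6 for 14 of the 30 genes by CPM, beside 7.9% of all genes tested, and for 21 with TMM-normalized CPM, beside 24.6%. By CPM, at 18 h 8 genes had their highest air-exposed level, at 12 h 5, at 24 h 2, at 30 h 1 and at 48 h 0. The 48 h library was the lowest of the 6 for 20 genes by CPM, beside 16.5% of all genes tested, and for 24 with TMM-normalized CPM, beside 26%. At 6 h the genes kept between 3.60 and 24.9% of their 0 h CPM, with a median of 15.3%, and at 48 h between 0.61 and 22.7%, with a median of 6.00%. Those with the most left at 48 h were met16 (22.7%), sskA (22.4%) and AN2238 (15.7%).

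**Figure D4:**
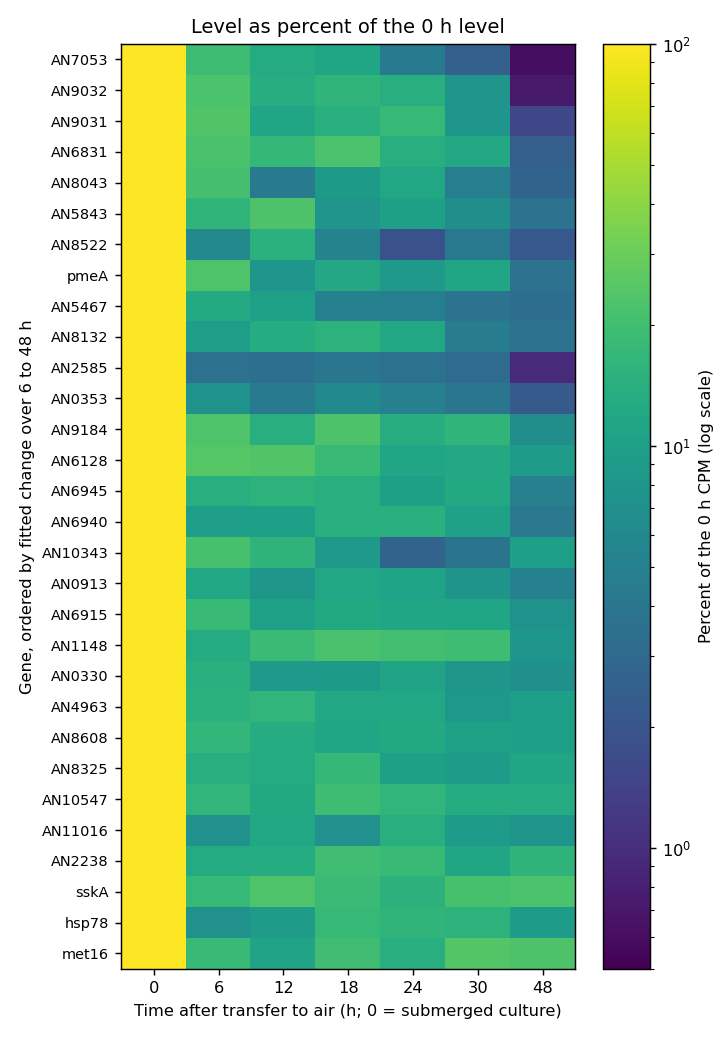
Level of each of the 30 genes (rows, ordered by fitted change over 6 to 48 h) at each time (columns, h) as a percent of its own 0 h CPM, on a log colour scale. The 0 h column is 100% by construction. The top rows go on down to 0.61% at 48 h for AN7053, while sskA and met16 near the bottom hold 22.4 and 22.7% there.

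The genes lay apart in the genome. They sat on 26 of the 226 contigs of the table, and 4 contigs held 2 each: AN0330 and AN0353 on contig 6 (64004 bases apart, 26 genes between), AN1148 and hsp78 on contig 16 (44701 bases, 15 genes), AN6940 and AN6945 on contig 112 (11727 bases, 4 genes), and the AN9031 pair. Between AN6940 and AN6945, AN6941 was at most at 24.3 CPM, and AN6942, AN6943 and AN6944 were at most at 0.719, 1.33 and 5.30 CPM. None of these 4 reached 20 CPM at 0 h. By the table's coordinates, none of the 30 overlapped a neighbouring gene. Counts were not stated to use the strand, and genes that run into each other beyond the listed ends cannot be separated.

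The 30 had 58 distinct neighbours that were not members, of which 34 reached 20 CPM in some library. For 8 of these 34 (23.5%) the 0 h level was the highest of the 7 by CPM, beside 8.95% of all 7197 genes at that level, and with TMM-normalized CPM for 13 (38.2%), beside 31.3%. By CPM the median ratio of 0 h to the highest other time was 0.335, beside 0.258. The highest ratio was that of AN8523, next to AN8522, which had 51.9 CPM at 0 h and 16.8, 11.2, 9.45, 11.6, 5.15 and 2.11 CPM at 6, 12, 18, 24, 30 and 48 h. AN5844, next to AN5843, had 73.6 CPM at 0 h and 17.9, 28.7, 25.5, 26.3, 21.7 and 5.32 CPM at 6, 12, 18, 24, 30 and 48 h. AN6946, next to AN6945, had 129 CPM at 0 h and 56.4, 43.2, 62.3, 43.2, 39.9 and 14.6 CPM at 6, 12, 18, 24, 30 and 48 h. These 3 lay 426, 249 and 601 bases from a member and were highest at 0 h by 3.09, 2.57 and 2.06 times. Most neighbours were highest in air: AN1162, 390 bases from hsp78, had 285 CPM at 0 h and 603, 518, 576, 522, 612 and 814 CPM at 6, 12, 18, 24, 30 and 48 h, and leu2A, next to AN0913, had 29.6 CPM at 0 h and 162, 70.9, 60.0, 94.0, 95.3 and 125 CPM at 6, 12, 18, 24, 30 and 48 h.

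Per length of transcript, the 30 genes ran from 24.1 to 4472 RPKM at 0 h (the authors' values, scaled by gene length and library total), with a median of 341. Their counted lengths ran from 513 to 3174 bases with a median of 1187, beside 1242 over all genes. hsp78 was at 883 RPKM, sskA at 334, met16 at 349 and pmeA at 209 RPKM at 0 h. By this measure AN1148 (1152 RPKM) and AN2238 (1026 RPKM) came next after AN8043, and hsp78 was above sskA, met16 and pmeA. The lowest were AN8522, AN8132 and AN9031, at 25.5, 25.2 and 24.1 RPKM.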

How the data were processed

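The authors deposited 3 values per gene and library, per the file headers: raw counts, reads per nucleotide (a signal not scaled for depth) and RPKM. The deposited RPKM is that signal scaled by the library's summed counts. The counted length is the count divided by the signal. The submitters' processing notes name CASAVA and give no version. The sources used here do not give the aligner, build, annotation or strand setting, or whether the duplicate filters in the labels' protocols were pooled. Contig positions are those of the table.

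Symbols came from an ASM1142v1 table, used for names only, which held 10455 of the 10639 identifiers, 778 with a symbol. Promoter and protein sequences were not used here.

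The members and lists were chosen with earlier results of these data known. Levels are CPM by totals. The slope on hours over the 6 air-exposed libraries was fitted for all genes with edgeR 4.0.16 (R 4.3.3; quasi-likelihood, robust, TMM; genes at 1 CPM or more in at least 1 library and 15 counts in all), with Benjamini-Hochberg adjustment and a threshold of 0.05. Changes are slopes multiplied by 42 h, also without the 6 or 48 h library, where the hours fitted spanned less than that. DESeq2 1.42.0 and limma 3.58.1 (voom) were alternatives. The test was tried on simulated counts with 200 genes changed over 6 to 48 h. It recovered 50% of the changes of 2 log2 units and 96% of those of 4. Of its 149 calls, 3 were false. Ratios have exact 95% intervals from both counts. Genes were named by rule: members with a symbol, the highest levels and ratios, the edges of the thresholds, the smallest adjusted p, neighbours, and genes of lists that held a member.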

Additional observations from a re-analysis of the deposited data

How the results depend on the processing

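The number of genes chosen depends on the scale and on the ratio. It was 30 by totals, 226 with TMM-normalized CPM and 272 with DESeq2 size factors, all 30 included in both. A ratio of at least 3 gave 65 genes and one of at least 8 gave 3. Floors of 10 and 50 CPM gave 32 and 26, leaving none out gave 37, and taking the highest over 5 of the 6 air-exposed libraries gave 31 to 38. Falling members numbered 17, and 11 by totals alone, 13 on log2 of hours, 19 with DESeq2 and 6 to 16 with 1 library left out. Rising members numbered 0 in all 12 alternatives. Over all genes, 841 fell, with 381 by totals, 1273 with DESeq2 and 284 to 973 with 1 library left out, and 977 rose, with 2157 by totals and 408 to 1022 with 1 library left out. The median change over all genes moved from 0.07 to 0.66 by totals, and that of the members from -1.94 to -1.34. Of the 17 falls, 4 were called in all 12 alternatives and 13 were lost in at least 1. Calls lost by totals alone were 6 and on log2 of hours 4. The sign of 4 small changes, none past the threshold, turned: hsp78 (AN1163) was at 0.25 by totals, 0.089 on log2 of hours and -0.93 to 1.13 with 1 library left out; AN2238 was at 0.090 by totals and sskA (AN7697) at 0.20. met16 (AN4770) was at -0.0079 with DESeq2, -0.11 on log2 of hours and -0.22 to 0.53 with 1 library left out. The cause was not tested. No paired analysis was possible because each time has 1 library. Depth limits the low genes: 3 counts were worth 0.717 CPM at 12 h and, in the deepest library, 0.303 CPM. The planned promoter and protein comparisons were not run.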
